A study of Mus musculus with 61 samples.

Results

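Liver-enriched transcription factors of the HNF, FOXA and GATA groups were followed in cultured mouse hepatocytes. There were 8 genes in all, of which Foxa1, Foxa2, Foxa3, Onecut2, Prox1, Gata4 and Gata6 had a probe on the array and Onecut1 had none. These 7 genes, of 19057 with a probe of their own, were chosen by name, with earlier results of these data known, and all 12 of their probes were looked up in the table of signals before normalization. Hepatocytes came from gp130- mice, which carry Cre recombinase under the albumin promoter with floxed alleles of Il6st, the gene of gp130. The other hepatocytes came from littermates that carry the floxed alleles without Cre, here gp130flox, which the labels call wild type. Both strains were on a C57BL/6 background, and the labels give no age. Primary cells were cultured, kept without serum overnight and then given 200 ng/mL IL-6 for 0, 1, 3, 6 or 12 h, so that the arrays at 0 h are the only ones without IL-6. A change from 0 h therefore joins IL-6 and time in culture, and these cannot be told apart.

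FOXA proteins are winged-helix factors that open packed chromatin at liver enhancers, and together they allow the liver bud to form. Onecut1 (HNF6) and Onecut2 carry a cut domain and a homeodomain and act in hepatocyte and bile duct differentiation. Prox1 is a homeodomain factor that hepatoblasts need to migrate out of the liver bud, it represses nuclear receptors such as HNF4A in adult liver, and it also marks lymphatic endothelium. Gata4 and Gata6 are zinc finger factors of early liver development, and Gata4 is also made by sinusoidal endothelium. The protein gp130 is the subunit through which IL-6 receptors signal to STAT3.

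The 61 arrays (28 gp130-, 33 gp130flox) come from 13 preparations, a preparation being the arrays of 1 genotype that share a number in the deposited table. They fall into a set numbered 6 to 11 (36 arrays, 3 gp130- and 5 gp130flox preparations) and a set numbered 1 to 4 (25 arrays, 3 gp130- and 2 gp130flox preparations), which differ so widely that every comparison was made within each. What the number stands for is not given, and p-values measure the spread between preparations, which may share an animal or a day. The fits at each time and of changes from 0 h pool this spread over the times. They count the arrays of 1 preparation as independent. Of 11 hepatocyte markers tested, 11 were detected on most arrays of preparations 6 to 11 and 8 on most of preparations 1 to 4, where Ttr, Apoa1, Apoc3, Ass1 and Serpina1a were detected on all 25 arrays but Alb, the albumin gene, on 1 and Hpd on 4. The level of Ttr was 14.18 in gp130- and 14.03 in gp130flox of preparations 6 to 11, and 13.29 and 12.20 in those genotypes of preparations 1 to 4. That of Cyp2e1, which differed most between the sets, was 13.67 and 13.01 in preparations 6 to 11 and 4.92 and 4.44 in preparations 1 to 4, where the lowest detected level of an array lay between 4.47 and 4.83 on this log2 scale. Krt19, a bile duct keratin, was detected on 4 of 36 arrays of preparations 6 to 11 and on all 25 of preparations 1 to 4. Of the other bile duct markers with a probe, Krt7 was detected on 1 and 20 arrays of these sets and Sctr on 14 and 9. Sox9 was detected on all arrays, Epcam and Cftr on none. Each array detected 15257 to 17818 probes in preparations 6 to 11 and 17493 to 19256 in preparations 1 to 4. In preparations 1 to 4, the gp130flox array of preparation 1 at 3 h stood apart from the rest (its closest correlation was 0.964, against 0.985 to 0.997 for the others), and Xist was bright in gp130- preparations 2 and 3 (8.26 or more) and at most 4.25 in all other preparations. No gp130flox preparation had this Xist signal, so that in preparations 1 to 4 it goes partly with genotype. Il6st, the targeted gene, whose probe is not stated to lie in the deleted part, was at 5.82 ± 0.44 in gp130- and 6.51 ± 0.32 in gp130flox of preparations 6 to 11 (SD, n = 13 and 23 arrays), and at 5.18 ± 0.17 and 6.23 ± 0.40 in those genotypes of preparations 1 to 4 (SD, n = 15 and 10 arrays). Its difference was -0.70 (SE 0.10, adjusted p = 0.00216, limma) in preparations 6 to 11 and -1.05 (SE 0.10, adjusted p = 0.190) in preparations 1 to 4.

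Promoters of 5 of the 8 genes (Foxa1, Foxa2, Foxa3, Onecut1 and Prox1) were read from RefSeq (8 windows on GRCm38.p6, each from 250 bases before to 50 after a transcription start). Those of Onecut2, Gata4 and Gata6 were not searched. Motifs were searched on both strands, and their shares are those of all 32841 promoters of that length. The STAT motif TTCNNNGAA stood in 8.3% of them. The FOXA motif TGTTTAC stood in 3.65%. Of the ONECUT motifs, 7.54% held ATTGAT. The other ONECUT motif, ATCGAT, was in 0.926%. The GATA motif AGATAA was in 11.2%. No window of the members held more than 1 match, so that none overlapped. Among the 8 windows, a FOXA motif stood in that of Foxa1, ATTGAT in 1 of the 3 windows of Foxa2 and AGATAA in another of them, and no window held the STAT motif. Shown with motifs in capitals are the windows of Prox1, whose genotype difference below had the smallest p, and of Foxa1. Of Foxa2 the window with ATTGAT is shown and that with AGATAA is not. All 4 windows shown lie on the minus strand, at chr1:190170778-190171077 and chr1:190169466-190169765 for Prox1, chr12:57546062-57546361 for Foxa1 and chr2:148046920-148047219 for Foxa2.
Prox1, first start: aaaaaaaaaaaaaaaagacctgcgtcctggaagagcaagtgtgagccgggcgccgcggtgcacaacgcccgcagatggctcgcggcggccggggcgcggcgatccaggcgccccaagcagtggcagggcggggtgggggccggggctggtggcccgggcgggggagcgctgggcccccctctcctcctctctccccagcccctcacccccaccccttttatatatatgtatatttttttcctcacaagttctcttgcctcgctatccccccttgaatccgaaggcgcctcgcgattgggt
Prox1, second start: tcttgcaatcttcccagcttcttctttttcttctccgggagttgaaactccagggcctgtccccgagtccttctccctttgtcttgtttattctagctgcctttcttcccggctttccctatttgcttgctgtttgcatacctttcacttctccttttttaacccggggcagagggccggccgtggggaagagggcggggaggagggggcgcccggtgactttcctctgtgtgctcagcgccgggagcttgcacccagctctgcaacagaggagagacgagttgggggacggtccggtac
Foxa1: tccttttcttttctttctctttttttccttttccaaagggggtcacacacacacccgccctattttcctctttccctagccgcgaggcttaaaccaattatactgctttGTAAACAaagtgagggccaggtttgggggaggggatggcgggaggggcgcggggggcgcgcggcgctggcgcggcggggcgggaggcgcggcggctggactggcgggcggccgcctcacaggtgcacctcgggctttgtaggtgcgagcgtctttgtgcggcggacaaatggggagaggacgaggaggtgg
Foxa2: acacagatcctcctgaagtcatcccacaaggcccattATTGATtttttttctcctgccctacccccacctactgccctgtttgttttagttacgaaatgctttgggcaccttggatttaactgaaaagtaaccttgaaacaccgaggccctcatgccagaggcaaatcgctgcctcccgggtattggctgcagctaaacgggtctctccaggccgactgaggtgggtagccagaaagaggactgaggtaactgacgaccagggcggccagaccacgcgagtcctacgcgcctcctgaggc
Capitals mark the FOXA motif 141 bases before the start of Foxa1 and ATTGAT 213 bases before that of Foxa2, and the Prox1 windows hold none of the motifs searched.

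A probe was kept where at least 5 arrays gave it a detection p under 0.05, which held for 9 of the 12 probes and left each of the 7 genes with a probe. On all 61 arrays both kept probes of Onecut2, ILMN_2693913 and ILMN_2492944, were detected, as were Foxa1, Foxa3, Gata6 and the Prox1 probe ILMN_2598766. Foxa2 was detected on 59 arrays. Gata4 was detected on 28 arrays (8 of 36 in preparations 6 to 11, 20 of 25 in preparations 1 to 4) and stayed near background, with levels from 4.22 to 5.04. A dim probe of Prox1, ILMN_2894355, was detected on none of the 36 arrays of preparations 6 to 11 and on 11 of 25 in preparations 1 to 4. Another probe of Onecut2 was detected on 3 arrays, one of Gata6 on 2 and one of Foxa2 on 0, and these 3 were left out. The 2 kept Onecut2 probes rose and fell together, with a correlation of 0.91 over the 36 arrays of preparations 6 to 11 and 0.88 over the 25 of preparations 1 to 4, where arrays of 1 preparation share their cells.

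The factors were mostly lower in preparations 6 to 11 than in preparations 1 to 4. Of 9 probes, 6 from 5 genes were lower by more than 1.5-fold (Onecut2 with both probes, Gata6, Foxa2, Prox1 and Foxa1), and no member was higher by that much, against a background of 18.3% of all 19543 probes lower and 14.5% higher. The difference, averaged over the genotypes, was -1.96 and -1.44 for ILMN_2693913 and ILMN_2492944 of Onecut2, -1.43 for Gata6, -1.25 for Prox1, -1.25 for Foxa2 and -1.18 for Foxa1, all log2. Foxa3 differed the other way, by 0.41, with overlapping arrays. The median over all probes was -0.03. Since the labels do not give these sets, no test was made of this difference.

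Foxa1 parted the sets completely. Its level ran from 5.95 to 7.15 (median 6.61) in preparations 6 to 11, against 7.21 to 8.57 (median 7.69) in preparations 1 to 4, with no overlap between arrays, which holds for 4.07% of all probes in this direction. Onecut2 probe ILMN_2693913 ran from 7.16 to 9.58 (median 8.30) in preparations 6 to 11, against 8.55 to 11.17 (median 10.19) in preparations 1 to 4. The overlap came from gp130flox arrays of the first set and from gp130- preparation 4 of the second. Gata6 ran from 6.71 to 7.84 (median 7.33) in preparations 6 to 11, against 7.43 to 9.46 (median 8.67) in preparations 1 to 4, and in the second set its lowest value was that of the array that stood apart. Foxa2 lay between 4.41 and 6.00 in preparations 6 to 11, near the lowest detected levels, against 5.76 to 7.03 in preparations 1 to 4. Prox1 overlapped little, at 5.49 to 6.96 in preparations 6 to 11, against 6.76 to 7.87 in preparations 1 to 4.

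Markers of several cell types moved with the sets. Of 11 hepatocyte markers tested, 10 were higher by over 1.5-fold in preparations 6 to 11 and 0 lower, and all 6 Kupffer cell and macrophage markers tested were higher there. Endothelial markers counted 5 higher and 1 lower of 9. Of 4 bile duct markers tested, 0 were higher and 1 was lower, Krt19 with -4.18, at a list median of -0.48. Of 7 stellate cell and fibroblast markers, 1 was higher (Dcn, 1.19) and 1 lower (Acta2, a marker of activated stellate cells, -2.93), at a list median of -0.05. The summed level of the hepatocyte list ran from 15.91 to 16.59 in preparations 6 to 11 and from 11.91 to 14.15 in preparations 1 to 4, on a log2 scale. In such bulk samples fewer cells of a type and less RNA per cell cannot be told apart, and the part of these cell markers in the levels of the factors was not tested.

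**Figure D1:**
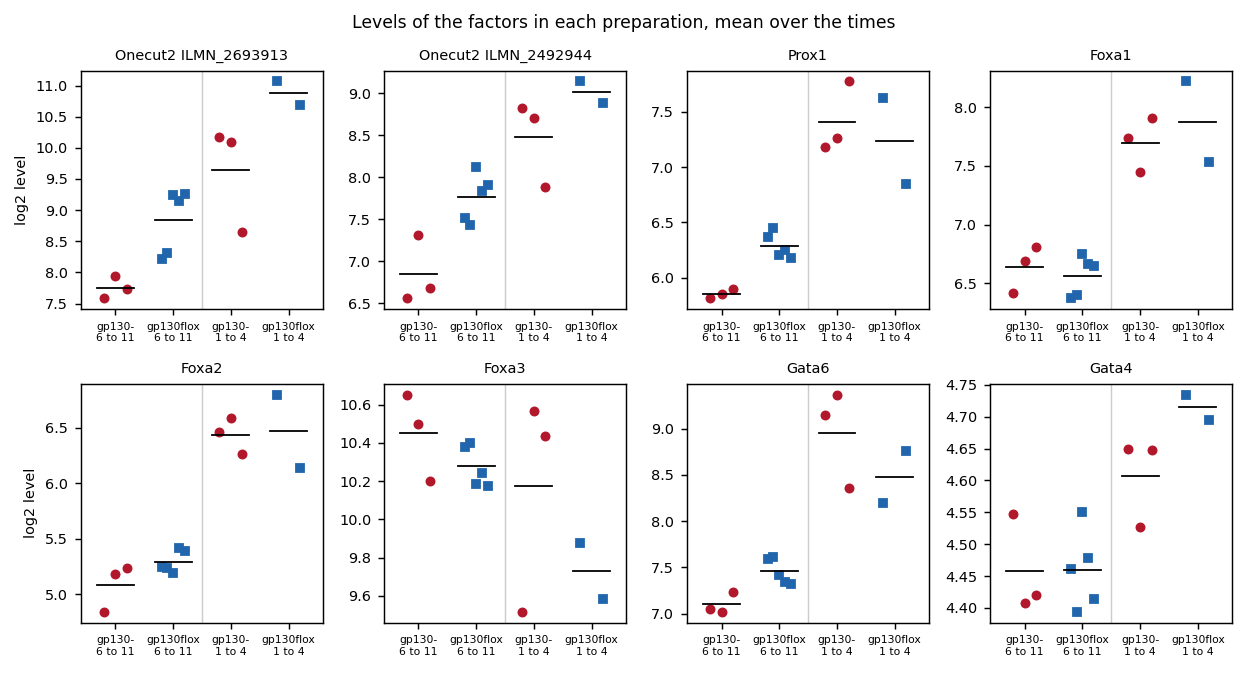
Level of each factor (log2 signal, y axis, scaled separately for each probe) in each of 13 preparations, averaged over its times after adjustment for time; points are preparations (circles gp130-, squares gp130flox) and bars their means, for preparations 6 to 11 left and 1 to 4 right of the grey line. Foxa1, Foxa2, Prox1, Gata6 and Onecut2 lay lower in preparations 6 to 11, and within these Onecut2, Prox1 and Gata6 were lower in every gp130- preparation than in every gp130flox preparation.

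Within preparations 6 to 11, Onecut2 was lower in gp130- hepatocytes. Averaged over the 5 times, the level of ILMN_2693913 was 7.58, 7.94 and 7.73 in gp130- preparations 6, 7 and 9, against 8.22, 8.31, 9.25, 9.15 and 9.26 in gp130flox preparations 7 to 11. All gp130- values lay below all gp130flox values, and the gp130flox preparations spread over a wider range. The difference was -1.09 (SE 0.27, 95% interval -1.69 to -0.48), with an adjusted p of 0.0261 by limma over all 19543 probes, and ILMN_2492944 gave -0.91 (SE 0.20, adjusted p = 0.0168). Onecut2 was thus the 1 member gene called (adjusted p under 0.05 and a fold over 1.5), where 6.20% of all probes were called and 2.80% called lower. The exact two-sided permutation test over the 8 preparations gave p = 0.0357 for ILMN_2693913 and p = 0.0179 for ILMN_2492944, where 0.0179 is the smallest that 56 splits allow. Leaving out gp130- preparation 6 ended the call of both probes (adjusted p = 0.0786 and 0.0614), and leaving out gp130- preparation 7 or gp130flox preparation 9, 10 or 11 ended that of ILMN_2693913 (adjusted p from 0.0565 to 0.0631). Without the filter on detection neither probe was called (adjusted p = 0.0795 and 0.0527).

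Prox1 was also lower in gp130- hepatocytes of preparations 6 to 11, by less than the 1.5-fold required. Its level was 5.81, 5.85 and 5.89 in gp130- preparations 6, 7 and 9, against 6.37, 6.45, 6.20, 6.25 and 6.18 in gp130flox preparations 7 to 11. The gp130- preparations lay close together and below every gp130flox preparation. The difference was -0.44 (SE 0.08, adjusted p = 0.0066, limma), a fold of 1.35, and the exact permutation test gave p = 0.0179. Gata6 was 7.05, 7.02 and 7.23 in the gp130- preparations, against 7.59, 7.61, 7.42, 7.34 and 7.32 in the gp130flox preparations, again with no overlap. Its difference was -0.36 (SE 0.09, adjusted p = 0.0347, limma; exact permutation p = 0.0179), a fold of 1.28. On leaving out each preparation in turn the adjusted p ran from 0.00888 to 0.0352 for Prox1 and from 0.0189 to 0.132 for Gata6. Preparation means without overlap and lower in gp130- were found for 9.99% of all probes.

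The FOXA genes and Gata4 did not pass in preparations 6 to 11. Foxa2 differed by -0.21 (95% interval -0.44 to 0.02, adjusted p = 0.242), Foxa3 by 0.17 (-0.07 to 0.42, adjusted p = 0.366) and Foxa1 by 0.07 (-0.20 to 0.34, adjusted p = 0.773), all by limma. These are averages over the 5 times, for which the intervals of Foxa1 and Foxa3 leave no room for a 1.5-fold difference on this scale. At single times the Foxa1 difference ran from -0.31 to 0.42, with intervals reaching -0.68 and 0.79, and those of Foxa3 reached 0.74. A 1.5-fold difference at a single time is thus not excluded. Foxa2 lay near background, where the offset makes folds smaller. Gata4 gave -0.00 (-0.15 to 0.15), from a probe detected on 4 of 13 gp130- arrays and 4 of 23 gp130flox arrays, so that a lower level could not have been measured.

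At 0 h neither Onecut2 nor Prox1 passed between the genotypes of preparations 6 to 11, where 1.51% of all probes were called lower. ILMN_2693913 of Onecut2 was 7.98, 8.23 and 8.45 in gp130- arrays, against 7.74, 8.67, 9.15, 8.39 and 8.57 in gp130flox arrays, with overlap (difference -0.28, 95% interval -1.04 to 0.47, adjusted p = 0.863, limma). ILMN_2492944 pointed the other way, at 7.28, 7.74 and 7.74 in gp130- arrays, against 7.02, 7.69, 8.05, 6.83 and 7.00 in gp130flox arrays (difference 0.27, interval -0.40 to 0.94, adjusted p = 0.847). Prox1 was 6.15, 6.14 and 5.78 in gp130- arrays, against 6.49, 6.17, 6.08, 5.87 and 5.74 in gp130flox arrays (difference -0.05, interval -0.36 to 0.27, adjusted p = 0.955). Foxa1 was 6.71, 6.80 and 6.87 in gp130- arrays at 0 h, against 6.26, 6.24, 6.61, 6.40 and 6.35 in gp130flox arrays. Its difference of 0.42 (SE 0.18) did not pass (adjusted p = 0.279, limma).

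From 3 h on, Onecut2 was called at each time with both probes. At 3 h ILMN_2693913 was 7.56 and 7.19 in gp130- arrays, against 8.65, 8.11, 9.58 and 9.36 in gp130flox arrays. The differences at 3, 6 and 12 h were -1.55 (SE 0.44, adjusted p = 0.0260), -1.49 (SE 0.42, adjusted p = 0.0226) and -1.29 (SE 0.37, adjusted p = 0.0245) by limma. For ILMN_2492944 they were -1.92 (SE 0.39, adjusted p = 0.00152), -1.25 (SE 0.38, adjusted p = 0.0310) and -1.17 (SE 0.33, adjusted p = 0.0213). At 1 h the 2 probes gave -0.96 and -0.92, which did not pass (adjusted p = 0.199 and 0.142), beside 1.87% of all probes called lower. ILMN_2693913 ran at 1 h from 7.52 to 8.21 in gp130- arrays, against 8.23 to 9.41 in gp130flox arrays. The arrays of ILMN_2492944 overlapped then. Only 2 gp130- arrays stand behind 3 h and 6 h each. On leaving out each of 8 preparations in turn, the call of ILMN_2693913 held in 4 fits at 3 h, 4 at 6 h and 3 at 12 h, and that of ILMN_2492944 in 7, 4 and 5. The preparations whose loss ended a call were gp130- 6 and 9 and gp130flox 9 and 10 at 3 h (adjusted p from 0.0517 to 0.276), gp130- 6 and 7 and gp130flox 10 and 11 at 6 h (0.0533 to 0.256), and gp130- 6 and 7 and gp130flox 9, 10 and 11 at 12 h (0.0511 to 0.273).

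Prox1 was called at the same 3 times. At 6 h its level was 5.66 and 5.49 in gp130- arrays, against 6.47, 6.96, 6.36, 6.36 and 6.85 in gp130flox arrays, a difference of -1.02 (SE 0.18, adjusted p = 0.000158, limma), that is 2.0-fold lower. At 12 h it was 5.57, 5.76 and 5.64 in gp130- arrays, against 6.73, 6.44, 6.18, 6.55 and 6.27 in gp130flox arrays, a difference of -0.78 (SE 0.15, adjusted p = 0.000828). The calls at 6 h and 12 h both held without each of the 8 preparations in turn. At 3 h the difference was -0.59 (SE 0.18, adjusted p = 0.0441), a fold of 1.51 that was lost without gp130- preparation 6, 7 or 9 or gp130flox preparation 8, 9 or 10 (adjusted p from 0.0626 to 0.206). At 12 h the fold fell under 1.5 with an offset of 50 (-0.52) or without background correction (-0.56). With both sets in one fit and the set as a term, Prox1 was not called at 3 h (-0.14, adjusted p = 0.782), 6 h (-0.55, adjusted p = 0.0896) or 12 h (-0.47, adjusted p = 0.168). The dim Prox1 probe ILMN_2894355 was at background on all these arrays and gives no fold. At 3, 6 and 12 h, 2.94%, 3.87% and 3.65% of all probes were called lower.

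Gata6 was lower at each time in preparations 6 to 11, by 0.30 to 0.53 in size, and passed the adjusted p at 12 h without reaching 1.5-fold. There it was 6.71, 7.16 and 7.19 in gp130- arrays, against 7.84, 7.59, 7.63, 7.33 and 7.34 in gp130flox arrays (difference -0.53, SE 0.14, adjusted p = 0.0169, limma, a fold of 1.44). Without gp130- preparation 7 or 9 the difference was -0.60 and -0.61 and was called. No Foxa gene and no Gata4 probe was called at any time. Over the 5 times Foxa2 lay between -0.28 and -0.18, and Foxa3 between 0.10 and 0.35.

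**Figure D2:**
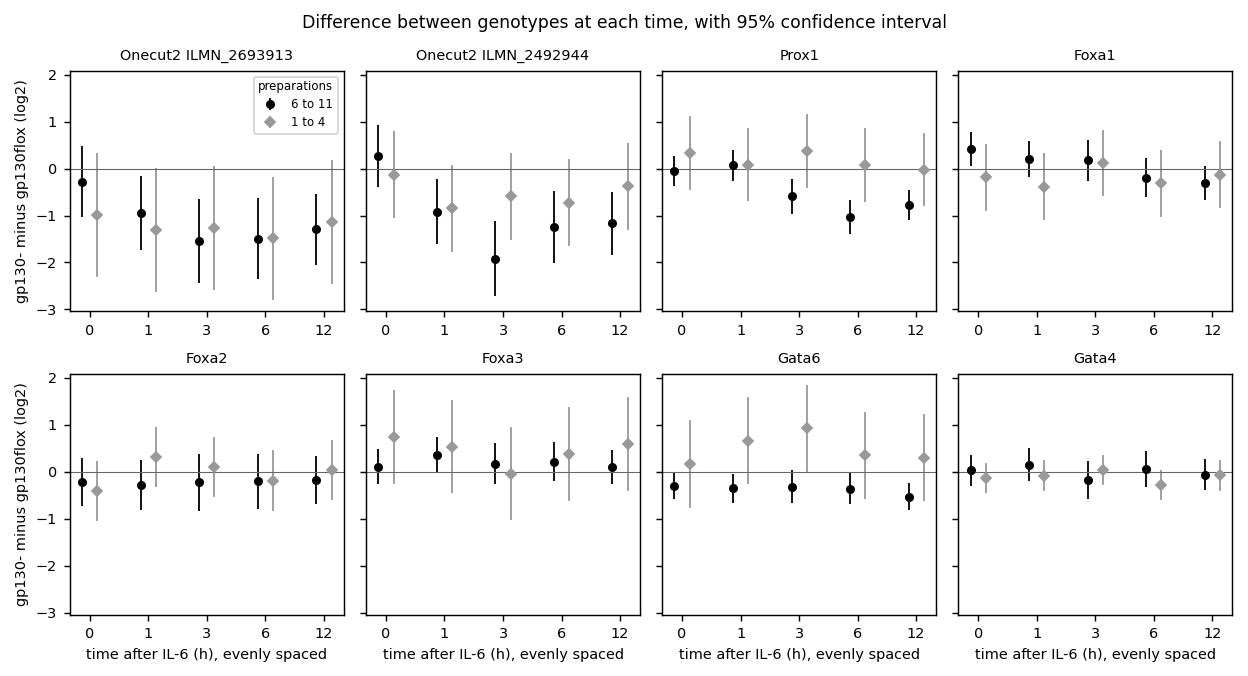
Difference of the log2 level, gp130- minus gp130flox (y axis), at each time after IL-6 (x axis, hours, evenly spaced) with its 95% confidence interval from limma, for preparations 6 to 11 (black circles) and 1 to 4 (grey diamonds). In preparations 6 to 11 the intervals of Onecut2 and Prox1 lie below 0 at 3, 6 and 12 h. Those of Onecut2 also lie below 0 at 1 h, and those of Gata6 at each time but 3 h. Intervals are not adjusted for the number of probes, and those of Onecut2 and Prox1 in preparations 1 to 4 are wider.

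In preparations 1 to 4 no member was called over the 5 times, where 0.0205% of all probes were, or at any 1 time, where 2.29% were called at 1 time or more. With 3 against 2 preparations the exact permutation test cannot go below p = 0.1. ILMN_2693913 of Onecut2 was 10.17, 10.10 and 8.65 in gp130- preparations 2, 3 and 4, against 11.07 and 10.69 in gp130flox preparations 1 and 2, a difference of -1.24 (SE 0.53, adjusted p = 0.613, limma). All gp130- preparations were again below all gp130flox preparations, as was the case for ILMN_2492944 (difference -0.54, SE 0.32, adjusted p = 0.733), and 13.4% of all probes shared this order. Preparation 4, the lowest, was the gp130- preparation without Xist signal. With gp130- preparations 2 and 3 left out, the difference of ILMN_2693913 passed at 3 h with -2.20 and at 6 h with -2.35 (adjusted p = 0.0421 and 0.0378), from 1 gp130- preparation that is assumed to vary as the others do.

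Prox1 and Gata6 pointed the other way in preparations 1 to 4. Prox1 was 7.18, 7.26 and 7.77 in gp130- preparations 2, 3 and 4, against 7.63 and 6.85 in gp130flox preparations 1 and 2 (difference 0.17, 95% interval -0.65 to 0.98, adjusted p = 0.949, limma). Gata6 was 9.14, 9.37 and 8.36 in the gp130- preparations, against 8.19 and 8.76 in the gp130flox preparations (difference 0.48, interval -0.48 to 1.44, adjusted p = 0.806). Both overlapped between genotypes. The genotype difference in preparations 6 to 11 minus that in preparations 1 to 4 was -0.84 for Gata6 (SE 0.32, interval -1.54 to -0.14, adjusted p = 0.255 by limma over all probes). For Prox1 it was -0.60 (SE 0.27, interval -1.19 to -0.02, adjusted p = 0.336). Both intervals, which are not adjusted for the number of probes, lay below 0. Neither difference passed after adjustment, where 1.40% of all probes were called. The same comparison gave 0.15 (interval -1.09 to 1.39) and -0.38 (-1.21 to 0.46) for Onecut2.

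Foxa3 in preparations 1 to 4 was 9.52, 10.56 and 10.44 in the gp130- preparations, against 9.88 and 9.58 in the gp130flox preparations (difference 0.44, SE 0.36, adjusted p = 0.822, limma). Its highest value in that set, 10.89, was on the array that stood apart, while the other gp130flox arrays lay between 9.47 and 9.79. Foxa1 differed by -0.18 (SE 0.26, adjusted p = 0.925) and Foxa2 by -0.03 (SE 0.23, adjusted p = 0.992).

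After IL-6 no member was called against 0 h in preparations 6 to 11, in either genotype. Onecut2 gave the largest value of the members, with -1.46 for ILMN_2492944 at 3 h in gp130- cells (SE 0.41, adjusted p = 0.500, limma) and 0.73 in gp130flox cells (SE 0.30), neither of which passed. Against their own 0 h arrays both gp130- preparations were lower at 3 h, by 0.86 and 1.91 in size, and all 3 were lower at 12 h. Of the gp130flox preparations, 3 of 4 were higher at 3 h and 3 of 5 at 12 h. The difference between these changes at 3 h was -2.19 (SE 0.51, 95% interval -3.23 to -1.15), with an adjusted p of 0.193 by limma, and 0.0409% of all probes were called there.

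For Prox1 the value at 6 h was -0.45 in gp130- cells (SE 0.19, adjusted p = 0.822, limma), with lower levels in both preparations, and 0.53 in gp130flox cells (SE 0.13, adjusted p = 0.0677), with higher levels in 4 of 5 preparations. The difference between the changes at 6 h was -0.98 (SE 0.23, interval -1.46 to -0.50, adjusted p = 0.131), where 0.0461% of all probes were called. At 12 h Prox1 was lower than at 0 h in 3 of 3 gp130- preparations and higher in 5 of 5 gp130flox preparations, with a difference of -0.73 (SE 0.22, adjusted p = 0.501). Without gp130flox preparation 7 the gp130flox change was 0.67 (adjusted p = 0.0239) and was called. At 12 h Foxa1 was above its 0 h level in 1 of 3 gp130- preparations and in 5 of 5 gp130flox preparations, there by 0.43 to 0.58. Its value in gp130flox cells was 0.49 (SE 0.16, adjusted p = 0.207) and the difference between genotypes -0.73 (SE 0.26, adjusted p = 0.651). Foxa3, Gata6 and Gata4 gave at most 0.28 in size at any time in gp130flox cells. Against 0 h, 0.972% of all probes were called at 1 time or more in gp130flox cells of preparations 6 to 11, while in gp130- cells at most 0.00512% were called at any time. Of the differences of changes at 1 h, 0.0256% were called.

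**Figure D3:**
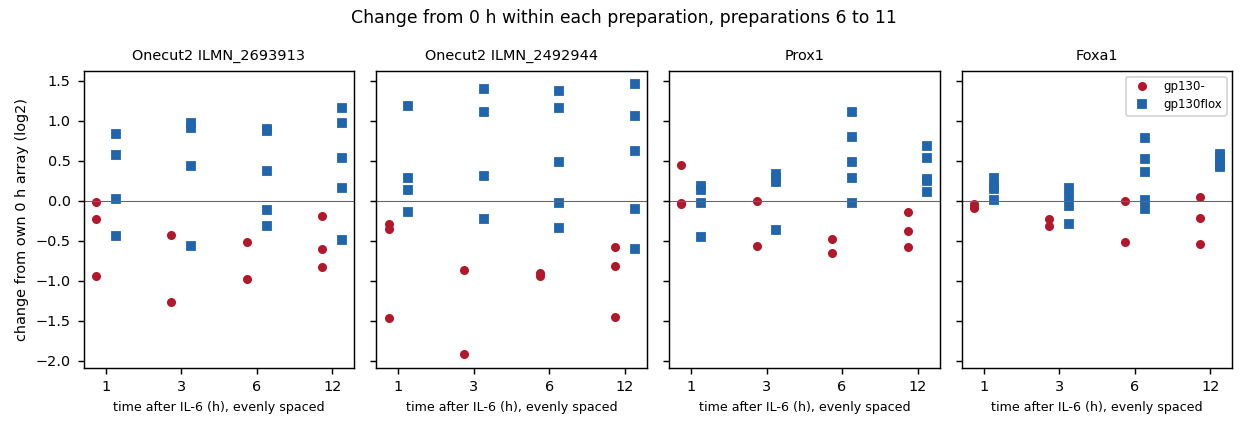
Change of the log2 level from the 0 h array of the same preparation (y axis) at each time after IL-6 (x axis, hours, evenly spaced) in preparations 6 to 11; each point is a preparation, circles gp130- and squares gp130flox. Every gp130- preparation lay below 0 for both Onecut2 probes, whereas gp130flox preparations lay on both sides, and for Foxa1 at 12 h all 5 gp130flox preparations lay between 0.43 and 0.58.

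In preparations 1 to 4 no member was called against 0 h either, where 0.0512% of all probes were called at 1 time or more in gp130flox cells. Arrays of 1 preparation deviated together in this set, and with the preparation as a replicate block the change of Gata6 in gp130flox cells at 3 h was called (-0.78, SE 0.17, adjusted p = 0.0254, limma, against 0.653 without the block). That change rests on the array that stood apart, where Gata6 was 7.43, while the other gp130flox arrays lay between 8.28 and 9.11. Without that array the blocked change was -0.36 (adjusted p = 0.496).

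**Figure D4:**
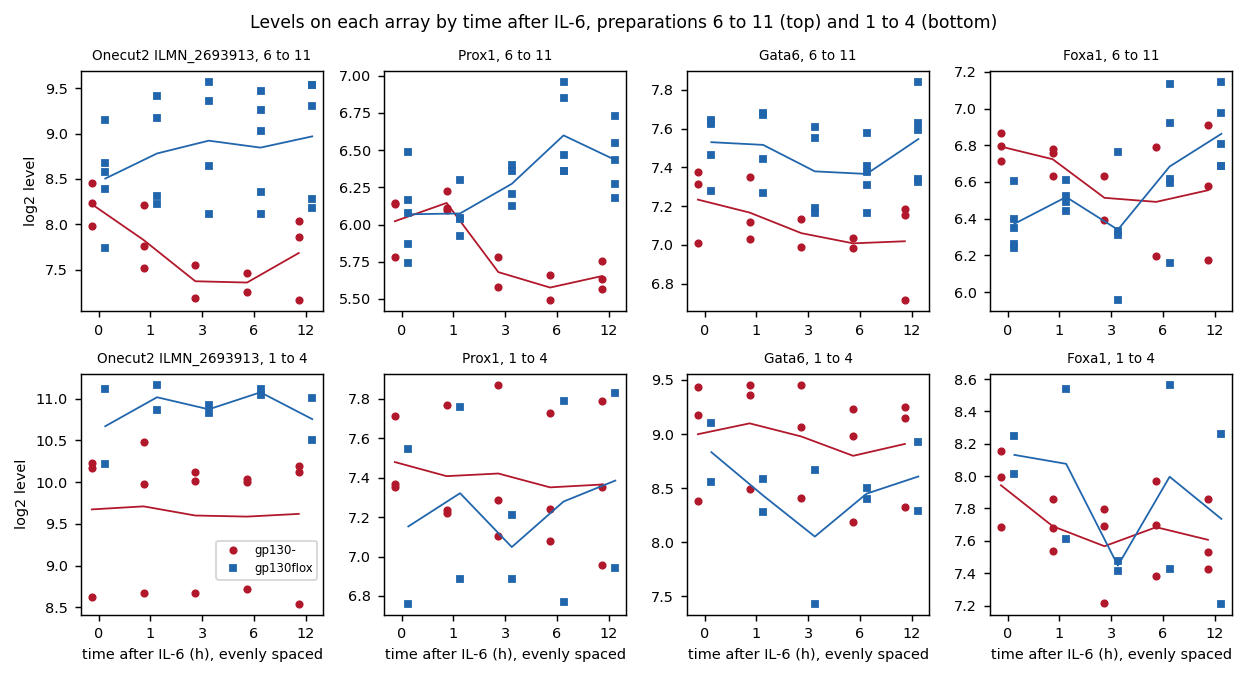
Level on each array (log2 signal, y axis, scaled separately for each panel) by time after IL-6 (x axis, hours, evenly spaced) for Onecut2, Prox1, Gata6 and Foxa1 in preparations 6 to 11 (top) and 1 to 4 (bottom); circles are gp130- and squares gp130flox arrays, lines join group means. In preparations 6 to 11 the arrays of the genotypes do not overlap from 1 h on for Onecut2. From 3 h on those of Prox1 and Gata6 do not overlap either. The share of all probes without overlap at single times was not counted. In preparations 1 to 4 gp130- preparation 4 has the low Onecut2 values near 8.6.

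Genes of other lists were looked at beside the factors. Of 11 other liver-enriched factors tested of 14 listed, 1 rose and 1 fell in gp130- cells of preparations 6 to 11, with a median difference of 0.08, against 0.00 over the 12157 genes, of which 3.65% were called higher and 3.29% lower (brightest probe of each gene). Nr1h4, the bile acid receptor FXR, was higher (0.66, SE 0.16, adjusted p = 0.0249, limma), and Cebpb, a factor of the acute phase, was lower (-0.72, SE 0.16, adjusted p = 0.0164). Hnf4a, the nuclear receptor that Prox1 binds, gave 0.33 (SE 0.16, adjusted p = 0.230). Of the other FOXA, ONECUT and GATA family genes and their cofactors, 2 of 6 with a probe were tested (Gata2 and Zfpm2) and neither passed.

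Of 12 tested liver genes known to have FOXA, HNF6 or GATA4 sites (16 listed), 6 rose and 1 fell in gp130- cells of preparations 6 to 11, with a median of 0.97. The glucose transporter gene Slc2a2 was higher by 1.70 (SE 0.11, adjusted p = 2.34e-05, limma), G6pc, which releases glucose, by 1.81 (SE 0.19, adjusted p = 0.000365), and Hamp, the iron hormone hepcidin, was lower (-1.87, SE 0.20, adjusted p = 0.000437). Of 11 hepatocyte markers 5 rose, among them Cps1 of the urea cycle (1.68, SE 0.13, adjusted p = 5.78e-05) and Hpd of tyrosine breakdown (1.42, SE 0.21, adjusted p = 0.00198), with a median of 0.69. The summed hepatocyte markers ran from 16.27 to 16.59 in gp130- arrays and from 15.91 to 16.33 in gp130flox arrays of this set. Of 4 bile duct markers tested 1 was called, Sox9, a factor of bile duct cells, which was lower (-0.97, SE 0.10, adjusted p = 0.000432), at a list median of -0.04. None of the 7 stellate cell and fibroblast markers tested, none of the 9 endothelial markers tested and none of the 6 Kupffer cell and macrophage markers tested was called. Their part in the differences of Onecut2 and Prox1 was not tested. In preparations 1 to 4 the 1 gene of these lists called was Apoa1 (2.07, SE 0.09, adjusted p = 0.0343), the main protein of high-density lipoprotein, where 0.00823% of all genes were called higher and 0.0247% lower.

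Genes with the pattern most like each factor were sought by Pearson's correlation over the 36 arrays of preparations 6 to 11, which share preparations, times and genotypes. Onecut2 (ILMN_2693913) was most like Rbms1 (0.92) and Nfat5 (0.90), and over the 25 arrays of preparations 1 to 4 these were 0.88 and 0.55. Prox1 was most like Sema4a (0.89) and Flot2 (0.88), which were 0.38 and -0.11 in preparations 1 to 4. Gata6 was most like Arhgap42 (0.81) and Ppm1m (0.80), with -0.66 and -0.13 in preparations 1 to 4. For Foxa1, Foxa2, Foxa3 and Gata4 the highest correlations were 0.73 (Cd8b1), 0.71 (Arf5), 0.77 (Faah) and 0.63 (Dnajc14). Among the factors themselves, Gata6 and Prox1 correlated at 0.53 and Onecut2 and Prox1 at 0.46 in preparations 6 to 11, against -0.42 and -0.43 in preparations 1 to 4, and Onecut2 and Foxa3 at -0.51 and -0.50 in preparations 6 to 11 and 1 to 4.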

How the data were processed

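Signals of 45281 probes on 61 Illumina MouseWG-6 v2 arrays were used. The authors extracted them with GenomeStudio 1.6.0 and deposited them as linear intensity values without normalization, each with a detection p-value against negative control beads. The authors' values after cubic spline normalization were not used here, since their columns could not be tied to preparation numbers. All columns of signals were assigned to a genotype and time (0 were not).

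Background correction by neqc, an offset of 16, quantile normalization and log2 were applied over all arrays (limma 3.58.1, R 4.3.3). Of 34885 probes with exactly 1 gene, 19543 from 12157 genes were tested, those for which 5 arrays or more gave a detection p under 0.05. Symbols came from the platform annotation, of which 34807 probes were matched to current Entrez genes. Within each set of preparations, time-adjusted preparation means gave the difference over the 5 times, and 10 group means gave each time, each change from 0 h and the difference of changes (lmFit, eBayes, Benjamini-Hochberg over all probes). A call needed a fold over 1.5 together with an adjusted p under 0.05, the thresholds of the methods. Exact permutation tests over preparation means were two-sided. The number of arrays limits the precision.

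Whether numbers pair arrays was checked by correlating deviations from group means. In preparations 1 to 4 all 50 pairs exceeded 0.1 (0.17 to 0.91), so the block is given where it changes a call, while in preparations 6 to 11 the 64 pairs ran from -0.36 to 0.75. The scripts were tested on simulated data. Named genes are the members, up to 3 called genes with the largest difference in a list and its defining markers, the 2 genes most like each member, Il6st as a check of the labels, and Xist and Cyp2e1. The members, lists and sets were chosen with earlier results of these data known. Hnf4a, Gata2 and Zfpm2 were named after their values were seen.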

Additional observations from a re-analysis of the deposited data

Results flagged for a closer look

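Of 45 groups of 4 or more arrays of preparations 6 to 11 tested (1 member probe, genotype and time each), 3 held an array far from the others by Dixon's criterion, and chance flags about 1 group in 20. Foxa2 in gp130flox cells at 1 h was 6.00 in preparation 11, against 5.34 to 5.42 in the others. Foxa2 in gp130flox cells at 12 h was 4.87 in preparation 10, against 5.23 to 5.33 in the others. Gata4 in gp130flox cells at 1 h was 4.76 in preparation 9, against 4.28 to 4.35 in the others, near background.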

How the results depend on the processing

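Counts are of member genes called. In preparations 6 to 11, over the 5 times, 1 (Onecut2) was called in the fit of the report, 3 (with Prox1 and Gata6) without a fold threshold, 0 with no detection filter (adjusted p = 0.0527 and 0.0795 for the probes of Onecut2) and 0 with both sets in one fit, and 0 to 1 on leaving out each preparation (0 without gp130- preparation 6). At each time there, 2 were called, 0 with both sets in one fit, 1 (Onecut2) with the set as a term, and 2 to 3 on leaving out each preparation. With both sets in one fit the Prox1 difference at 3 h turned to 0.19 (adjusted p = 0.958). For changes from 0 h in gp130flox cells there, the count was 0, and 0 to 1 on leaving out each preparation. In preparations 1 to 4 all counts were 0, but 1 over the 5 times with both sets and the set as a term (Onecut2, -1.15 and -0.77, adjusted p = 0.0244 and 0.0290), and at each time 1 with that term and 1 without the gp130- preparations with Xist signal (Onecut2). With the replicate block the count of changes from 0 h in gp130flox cells there was 1 (Gata6). In preparations 6 to 11 the replicate block took the Prox1 call at 3 h (-0.58, adjusted p = 0.0509) and no other count changed with it. With the block the Prox1 change from 0 h at 6 h in gp130flox cells there (0.53, SE 0.13) passed the adjusted p (0.040, limma). It was not called, since it fell short of 1.5-fold. Between the sets 6 probes differed by over 1.5-fold under each alternative run. Each other count stayed within 1.5 times its value, and the causes of these changes were not tested. The cubic spline values were not run as an alternative. Single differences called in at least 1 setting were followed over the alternatives. Of these results 370 stayed as in the fit of the report, called or not called, 64 lost a call, 16 gained one and 1 turned. Low signals limit what can be said of Gata4 and Foxa2. Settings added after the data were seen were leaving out the gp130flox array of preparation 1 at 3 h, alone and with the block.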
